A study of Mus musculus with 2 samples.

Results

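The collagen genes of mouse skin wounds are described here across cell types and at 2 ages. They were taken by name, as every gene symbol made of Col, a number, a and a number, which gave 44 of the 33696 features in the count matrices. By collagen class these were 11 fibrillar chains, 9 basement membrane or basement-membrane-associated chains, 9 FACIT chains (fibril-associated collagens with interrupted triple helices), 6 beaded filament chains, 3 hexagonal network chains, 4 transmembrane chains and 2 others. Each of the 44 genes had at least 1 UMI (unique molecular identifier, 1 captured transcript), and 40 had at least 20 UMIs over both libraries. The remaining 4 were the cartilage genes Col2a1 with 6 and 4 UMIs in the young and aged library, Col9a1 with 3 and 0, Col9a2 with 3 and 3, and Col10a1 with 0 and 3.

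Full-thickness wounds of 10 mm on the back of male wild-type C57BL/6 mice were dissociated 6 days after wounding and profiled with droplet-based 3' single-cell RNA sequencing. The young library came from mice of 2 months and the aged library from mice of 24 months, each from several pooled animals whose number was not given in the sources used here. With 1 library per age no statistical test between ages was possible, and age, the pooled animals and library preparation cannot be told apart. The 95% intervals given are exact and cover counting error only.

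After filtering, 4661 young cells held 111268003 UMIs and 4210 aged cells held 107577591 UMIs, with medians of 15566 and 13776.5 UMIs per cell. Collagens supplied 4800295 and 4716166 of these UMIs. The libraries shared 3 cell barcodes. Cells were assigned to types by marker genes that included no collagen, and 560 young and 648 aged cells met no type's threshold. Fibroblast-gated cells numbered 1569 and 1453, macrophage/monocyte-gated cells 652 and 1041, neutrophil-gated cells 1385 and 914, endothelial-gated cells 68 and 49, and cells gated by pericyte and smooth muscle markers, called pericyte-gated here, 34 and 8. Keratinocyte-gated cells, the main cells of intact epidermis, numbered 8 and 1.

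Collagens are secreted or membrane proteins whose chains wind around each other into a helix, and they make up much of the dermis. Fibrillar collagens I, III and V form the fibres that fill a wound, FACIT collagens sit on the fibre surface, collagen VI forms beaded filaments around cells, and collagen IV forms the sheet-like network of basement membranes. Granulation tissue is known to be rich in collagen III, and fibroblasts are known as the main source of fibrillar collagen in skin.

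Upstream sequences of 3 loci are shown because the results turn on these genes. Col1a2 and Col3a1 supply, together with Col1a1, the bulk of collagen transcripts. Col4a3 and Col4a4 were both higher in 1 fibroblast set in both libraries. The sequences are from RefSeq on build GRCm38.p6, 5′ to 3′ on the strand named. Each ends at the base before the annotated start, or for the last one fills the gap between the starts of both genes. The Col1a2 sequence is chr6:4505368-4505617 on the plus strand, and its capitals mark a CCAAT motif. Its 2 matches to another motif searched, GGGCGG, are not in capitals. The Col3a1 sequence is chr1:45311288-45311537 on the plus strand, and its capitals mark a TATAAA motif. The interval between the divergent genes Col4a4 and Col4a3 is chr1:82586850-82586920, given on the minus strand, spans 71 bases and held none of the 3 motifs searched.
Col1a2: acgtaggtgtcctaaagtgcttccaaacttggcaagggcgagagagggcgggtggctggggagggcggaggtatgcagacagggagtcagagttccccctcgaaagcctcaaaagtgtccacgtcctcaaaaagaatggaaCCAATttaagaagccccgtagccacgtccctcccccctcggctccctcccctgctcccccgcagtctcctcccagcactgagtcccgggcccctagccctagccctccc
Col3a1: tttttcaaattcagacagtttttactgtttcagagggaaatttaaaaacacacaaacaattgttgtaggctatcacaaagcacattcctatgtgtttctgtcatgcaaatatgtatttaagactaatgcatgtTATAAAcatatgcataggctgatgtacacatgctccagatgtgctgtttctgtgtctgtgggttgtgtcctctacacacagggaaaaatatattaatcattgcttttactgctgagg
Col4a4-Col4a3 interval: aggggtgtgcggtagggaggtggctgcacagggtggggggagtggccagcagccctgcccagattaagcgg

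The motifs searched were CCAAT, then TATAAA, and lastly GGGCGG, none of which contains another. They were searched on both strands in RefSeq start-site windows of one length for all genes. CCAAT was present in 33.8% of 32851 windows, the second motif in 12.4% and the third in 32.7%. Of the 44 collagen genes, 35 were in the table, and of these 13 held the first motif, 5 the second and 21 the third in at least 1 window. These are letter matches and were not tested for binding.

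Collagen transcripts came almost wholly from fibroblast-gated cells. These cells held 98.7% of all collagen UMIs in the young library and 98.7% in the aged library, although they were 33.7% and 34.5% of the cells. They held 99.4% and 99.2% of the fibrillar UMIs, 99.1% and 99.0% of the FACIT UMIs and 97.6% and 98.6% of the beaded filament UMIs. Basement membrane collagens were spread more widely, with 54.5% and 62.6% of their UMIs in fibroblast-gated cells, 27.3% and 29.6% in endothelial-gated cells and 8.41% and 3.99% in pericyte-gated cells. Levels are given as CPM, the UMIs of a gene or class per 1000000 UMIs of all genes in the same cells. In the map of levels by cell type, the fibrillar block is bright in the fibroblast columns and the basement membrane block in the endothelial and pericyte columns.

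**Figure D1:**
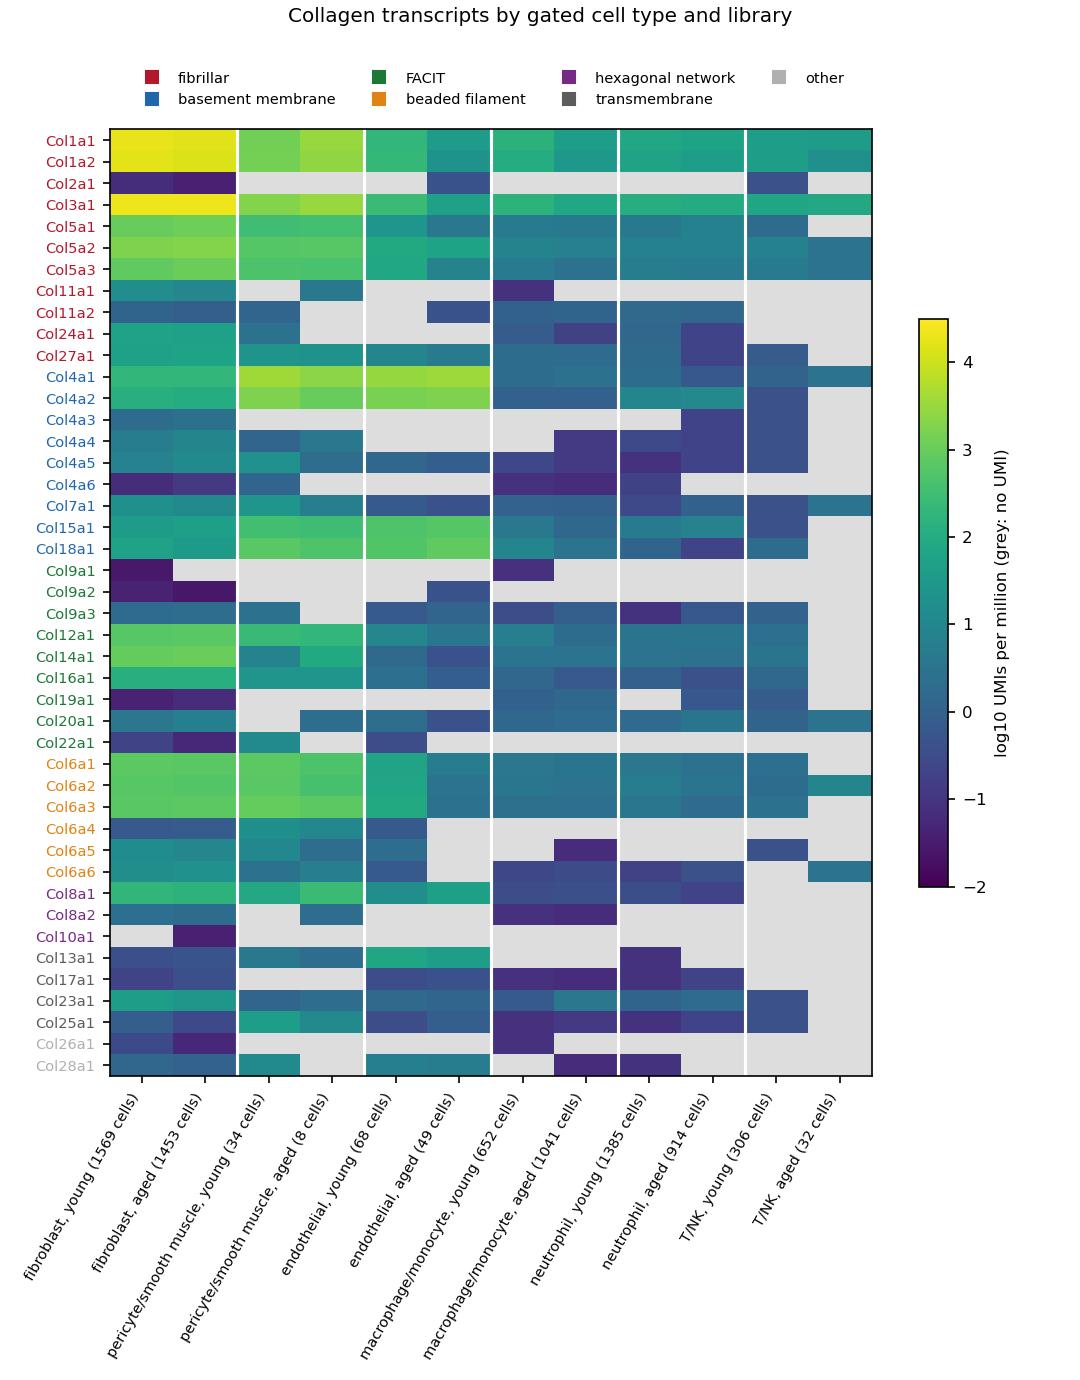
Levels of the 44 collagen genes (rows, grouped by class) in 6 gated cell types of the young and the aged library (columns), as log10 CPM; grey marks a count of 0. Fibroblast columns hold the highest fibrillar levels (Col3a1 at 22178 and 21193 CPM), while Col4a1 is highest in endothelial and pericyte columns.

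Over all cells of each library, collagens took 43142 CPM in the young library and 43840 in the aged library, an aged-to-young ratio of 1.016 (1.015 to 1.017). A gene was counted as differing between ages where it had at least 20 UMIs over both libraries and a ratio of 1.5 or more either way. Over all cells, 3 of 40 collagens were higher in the aged library (7.5%, against 11.0% of all genes), namely Col4a4, Col4a5 and Col20a1. Another 6 of 40 were lower (15%, against 10.5% of all genes). The 6 were Col13a1, Col17a1, Col19a1, Col22a1, Col25a1 and Col26a1. These shares lay near those of all genes, and the median log2 ratio was -0.07 for collagens and 0.12 for all genes.

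Within fibroblast-gated cells, collagens made up 6.70% of young and 6.08% of aged UMIs, a ratio of 0.907 (0.906 to 0.908). The median cell spent 6.43% of its UMIs on collagen in the young library and 5.83% in the aged library, and single cells ranged from 0% to 19.8% and from 0% to 30.1%. The class makeup was close in both libraries, with fibrillar collagens at 93.3% and 92.6% of collagen UMIs, beaded filament collagens at 3.14% and 3.28%, and FACIT collagens at 2.55% and 3.08%. Basement membrane collagens were 0.675% and 0.687%, hexagonal network collagens 0.284% and 0.265%, and transmembrane collagens 0.067% and 0.047%. Median depth differed between the libraries, at 42089 and 49977 UMIs per fibroblast-gated cell, and its part in the ratios was not tested.

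**Figure D2:**
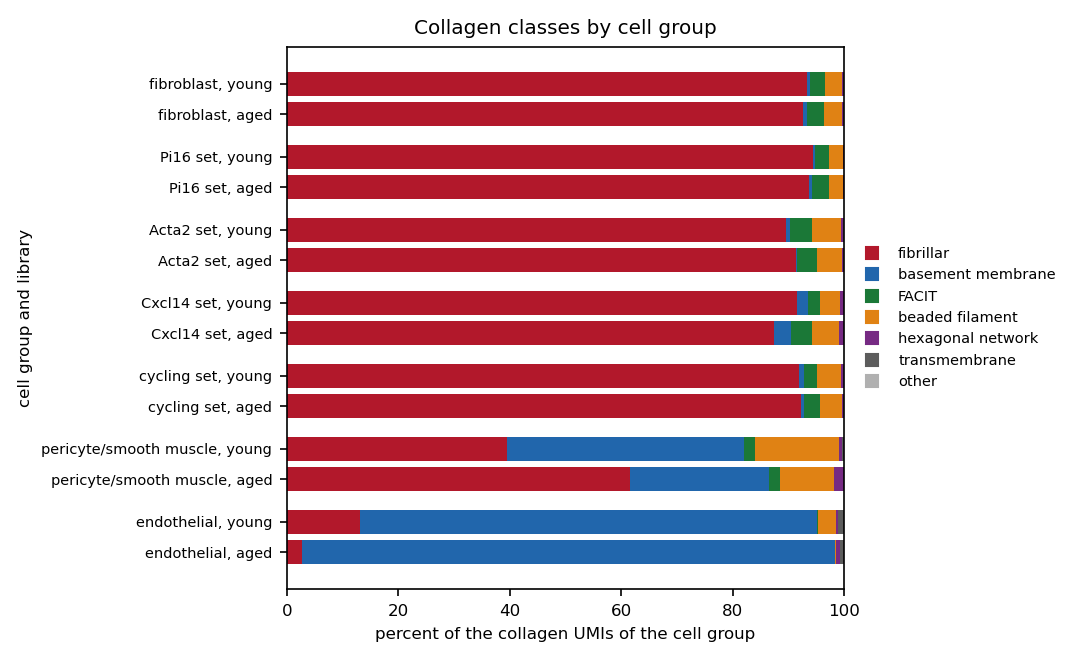
Share of collagen UMIs by collagen class (percent, horizontal axis) in fibroblast-gated cells, 4 fibroblast sets defined by marker genes, pericyte-gated and endothelial-gated cells of each library (bars). Fibrillar collagens fill 93.3% and 92.6% of the fibroblast bars, and basement membrane collagens fill 81.9% and 95.6% of the young and aged endothelial bars.

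Of 37 collagens with at least 20 UMIs in fibroblast-gated cells, 4 were at least 1.5-fold higher in the aged library (10.8%, against 11.7% of all 18231 genes measured there) and 5 were at least 1.5-fold lower (13.5%, against 8.16%). The higher genes were Col4a4, Col4a5, Col17a1 and Col20a1. The lower genes were Col11a1, Col18a1, Col23a1, Col25a1 and Col26a1. The other 28 lay between the limits, and the median log2 ratio was -0.04, against 0.09 over all genes. Below the count limit were Col2a1, Col4a6, Col9a1, Col9a2, Col10a1, Col19a1 and Col22a1. With TMM scaling, which shifted all fibroblast log2 ratios by -0.09, Col4a5 was at 1.47 and no longer past the limit, while Col7a1 at 0.634 and Col6a5 at 0.646 were past it.

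**Figure D3:**
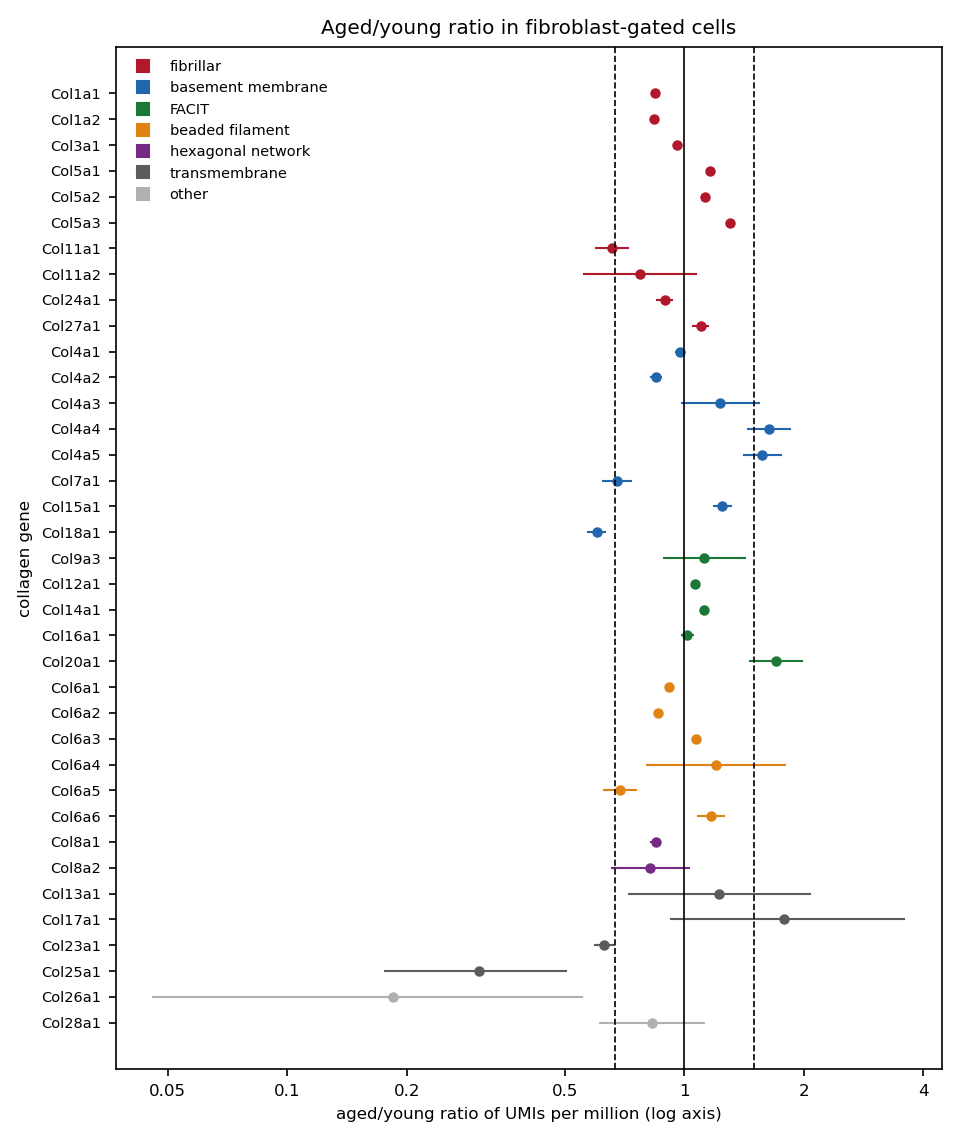
Aged-to-young ratio (log axis) of each of the 37 collagen genes with at least 20 UMIs in fibroblast-gated cells, grouped by class, with exact 95% counting intervals; dashed lines mark 1.5-fold either way. Most points lie between the lines, with Col20a1 (1.70) and Col4a4 (1.63) above and Col18a1 (0.602) and Col23a1 (0.628) below.

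The most abundant collagen transcript in fibroblast-gated cells was Col3a1, the single chain gene of collagen III, at 22178 and 21193 CPM in the young and aged libraries (0.956). The chains of collagen I followed. Col1a1 had 19529 and 16483 (0.844), and Col1a2 had 17038 and 14245 (0.836). Both chains were thus lower by nearly the same proportion, and the ratio of Col1a1 to Col1a2 UMIs was 1.15 in the young and 1.16 in the aged library. The ratio of Col3a1 to Col1a1 UMIs was 1.14 in the young and 1.29 in the aged library. A 3' assay counts transcript ends whatever the transcript's length, so levels and ratios of different genes are those of captured ends.

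The collagen V chains, which join collagen I fibres and limit their width, went the other way. Col5a1 was at 999.7 and 1160 CPM (1.16), Col5a2 at 1800 and 2025 (1.12) and Col5a3 at 833 and 1084 (1.30). These 3 ratios stayed under the 1.5-fold limit. Among the minor fibrillar chains, Col24a1 was at 58.3 and 52.0 (0.891) and Col27a1 at 52.4 and 57.6 (1.10). Col11a1, a chain that nucleates fibres in cartilage, had 15.6 in the young and 10.3 in the aged library (0.657, 0.599 to 0.720). Its 1106 and 787 UMIs came from 121 and 68 cells, and without the 10 highest cells of each library the ratio was 0.321. Col11a2, the second chain of collagen XI, was at 1.23 and 0.953 (0.775).

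The FACIT collagens of the fibre surface were led by Col14a1 and Col12a1. Col14a1 was at 926 and 1039 CPM (1.12) and Col12a1 at 656 and 699 (1.06). Col16a1, which links fibres to other matrix, was at 121 and 123. Col20a1 was rare, at 3.83 and 6.50, a ratio of 1.70 (1.46 to 1.97), and Col9a3 was at 1.90 and 2.13. The FACIT class as a whole had a ratio of 1.09.

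Collagen VI showed all 3 of its classical chains at similar levels. Col6a1 was at 733 and 671 CPM (0.915), Col6a2 at 653 and 561 (0.860) and Col6a3 at 684 and 731 (1.07). The Col6a3 to Col6a1 ratio was therefore 0.933 in the young and 1.09 in the aged library. The alternative chains, which can take the place of Col6a3, were scarcer. Col6a5 had 14.5 and 10.0 (0.689) and Col6a6 had 16.3 and 19.1 (1.17), and Col6a4 had 47 and 61 UMIs in all.

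Basement membrane collagens were low in fibroblast-gated cells, with ratios on both sides of 1. Col4a1, the main chain of collagen IV, was at 202 and 197 CPM (0.974), and its partner Col4a2 was at 121 and 103 (0.848). Among the chains of the more restricted networks, Col4a4 and Col4a5 passed the 1.5-fold limit. Col4a4 was at 5.84 and 9.52 (1.63, 1.44 to 1.84) and Col4a5 at 7.61 and 12.0 (1.57, 1.41 to 1.75). Col4a3, the partner of both, was at 1.99 and 2.45 (1.23). Col18a1, the precursor of endostatin, was at 57.2 and 34.5 (0.602, 0.573 to 0.633). Col15a1, the other collagen of that small subfamily, was at 37.3 and 46.5 (1.25). Col7a1, the anchoring fibril collagen below the epidermis, was at 18.8 and 12.7 (0.676, 0.622 to 0.735).

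Col8a1 and Col8a2 form the hexagonal network collagen VIII of vessels and healing tissue. Col8a1 was at 188 and 159 CPM (0.847) and Col8a2 at 2.42 and 1.98 (0.821). Among transmembrane collagens, Col23a1 was the highest at 43.6 and 27.4 (0.628, 0.594 to 0.664). Col25a1 had 64 and 21 UMIs from 18 and 12 cells, a ratio of 0.303. Col13a1 had 28 and 37 UMIs and Col17a1 had 15 and 29, a ratio of 1.79 whose interval of 0.926 to 3.58 included 1. Of the unclassed collagens, Col26a1 had 20 and 4 UMIs (0.185) and Col28a1 had 97 and 87 (0.828).

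Fibroblast-gated cells were split by further marker genes, again without collagens, into sets named after their leading gene. The Acta2 set (Acta2, Crabp1, Prss35, Tagln; genes of contractile wound fibroblasts) had 106 young and 113 aged cells. The Cxcl14 set (Cxcl14, C7, Cilp) had 152 and 124 cells, the Pi16 set (Pi16, Dpp4, Cd248; genes of fascia and adventitial fibroblasts) 846 and 802, and the cycling set (Top2a, Mki67, Ube2c, Cdk1) 66 and 124. A set named after Coch had 14 and 1 cells, and 385 and 289 cells fell into no set. Each set was compared with the other fibroblast-gated cells of the same library, and a collagen counted only where both libraries passed 1.5-fold in the same direction. This was done for the 30 collagens with at least 100 UMIs in the fibroblast-gated cells of each library, against 12184 genes overall.

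The Acta2 set was high in Col7a1 and Col12a1 and low in Col14a1. In both libraries 6 of the 30 collagens were higher there (5.96% of all genes were) and 6 were lower (8.49% of all genes). Col7a1 stood at 114 CPM in the young set against 11.3 in the other fibroblast-gated cells, a 10.0-fold difference (9.0 to 11.2). In the aged library it stood at 77.6 against 6.04, a 12.8-fold difference. The set held 44.1% and 56.8% of all fibroblast Col7a1 UMIs.

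Col12a1 was also high in the Acta2 set, at 1874 against 561 CPM in the young library (3.34-fold) and 1764 against 590 in the aged library (2.99-fold). Col14a1, the chain of another FACIT collagen, was low there, at 408 against 967 (0.42-fold) and 339 against 1111 (0.30-fold). The ratio of Col12a1 to Col14a1 UMIs was therefore 4.60 in the young and 5.21 in the aged Acta2 set, compared with 0.709 and 0.672 over all fibroblast-gated cells. Col12a1 also exceeded Col14a1 in the cycling set (2.35 and 2.00), the young Coch set (3.58) and the cells in no set (1.14 and 1.22), whereas the Pi16 set (0.418 and 0.324) and the Cxcl14 set (0.379 and 0.259) had the other order.

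Col27a1 (2.69-fold and 2.20-fold), Col23a1 (3.10-fold and 2.00-fold), Col24a1 (1.75-fold and 2.36-fold) and Col6a3 (1.72-fold and 1.56-fold) were the other collagens higher in the young and aged Acta2 sets. The lower ones beside Col14a1 were Col4a1 at 0.56-fold and 0.15-fold, Col4a2 at 0.53-fold and 0.17-fold, Col4a5 at 0.47-fold and 0.42-fold, Col6a5 at 0.14-fold and 0.26-fold, and Col6a6 at 0.17-fold and 0.32-fold. With the 10 highest cells of each gene left out of the set alone, Col7a1, Col12a1 and Col27a1 were still higher in both libraries. This step lowers the set by construction, so it cannot show whether the lower genes depend on those cells.

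Among these 4 sets, Col4a1 and Col4a2 were highest in the Cxcl14 set in both libraries. Of the 30 collagens, 9 were higher there in both libraries (4.13% of all genes were) and 3 were lower (8.31% of all genes). Col4a1 was at 604 CPM in the young set against 168 in other fibroblast-gated cells (3.59-fold), and at 854 against 157 in the aged library (5.45-fold). Col4a2 was at 351 against 102 (3.44-fold) and at 437 against 82.4 (5.30-fold).

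The pair Col4a3 and Col4a4, whose starts lie on either side of the interval printed above, was higher in the Cxcl14 set too. Col4a3 was at 8.16 against 1.47 CPM in the young library (5.55-fold) and at 21.9 against 1.26 in the aged library (17.3-fold). Col4a4 was at 21.9 against 4.48 (4.90-fold) and at 54.4 against 6.76 (8.04-fold). The ratio of Col4a3 to Col4a4 UMIs in the Cxcl14 set was 0.372 in the young and 0.402 (0.315 to 0.512) in the aged library. In the aged Pi16 set it was 0.112 (0.073 to 0.167). The young Pi16 set, whose levels are given below, lay much nearer to the young Cxcl14 set. Col4a5, the usual partner chain of Col4a3 and Col4a4, was not among the genes higher in the Cxcl14 set. It was instead higher in the Pi16 set.

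Col15a1 was at 103 against 31.8 CPM in the young Cxcl14 set (3.23-fold) and 3.45-fold higher in the aged set. Both collagen VIII chains were higher there, Col8a1 by 2.07-fold and 3.24-fold and Col8a2 by 2.62-fold and 4.17-fold in the young and aged libraries. Col6a5 (2.73-fold and 1.61-fold) and Col6a6 (1.85-fold and 2.32-fold) completed the group. Col24a1, Col12a1 and Col7a1 were the 3 lower genes. Basement membrane collagens were 1.93% and 3.16% of collagen UMIs in this set, against 0.389% and 0.469% in the Pi16 set. Since endothelial cells and pericytes also carry collagen IV, their markers were summed in the set. The 6 endothelial markers came to 11.2 and 24.1 CPM, against 15.2 and 20.1 over all fibroblast-gated cells. Of these, 5 and 4 were detected in the set. The 6 pericyte markers came to 24.9 and 16.9, against 15.8 and 8.48. In each library 5 of them were detected, in the set as over all fibroblast-gated cells. The part of either cell type in the result was not tested. Col4a3 and Col4a4 had no UMI in endothelial-gated cells of either library.

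The Pi16 set had the highest total of collagen among the 4 sets, at 74836 CPM in the young and 65010 in the aged library. The corresponding totals were 59969 and 64088 in the Acta2 set, 60677 and 49814 in the Cxcl14 set and 45826 and 51154 in the cycling set. Of the 30 collagens, 3 were higher in the Pi16 set in both libraries (3.31% of all genes were) and 11 were lower (9.45% of all genes). Col14a1 was at 1229 against 571 CPM (2.15-fold) in the young and 1411 against 627 (2.25-fold) in the aged library. Col4a5 was higher by 2.42-fold and 2.09-fold, and Col6a6 by 1.68-fold and 1.79-fold.

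The lower collagens of the Pi16 set included several that were high in the Acta2 or Cxcl14 set, and since the Pi16 set is a large part of the fibroblast-gated cells, these contrasts are not independent. Col11a1 was at 0.07-fold in both libraries, Col7a1 at 0.11-fold and 0.06-fold, and Col23a1 at 0.19-fold and 0.13-fold of the other fibroblast-gated cells. The other 8 were Col4a1, Col4a2, Col4a3, Col4a4, Col8a2, Col12a1, Col15a1 and Col27a1. In the cycling set 2 collagens were higher in both libraries (12.2% of all genes were) and 5 were lower (8.63% of all genes). Col7a1 (2.17-fold and 1.75-fold) and Col24a1 (1.66-fold and 2.02-fold) were the higher ones, and Col14a1 was lower at 0.29-fold and 0.40-fold. Cells of the cycling set were deeper, with medians of 73688 and 79652 UMIs. The map of fibroblast sets shows these gene blocks side by side for both libraries.

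**Figure D4:**
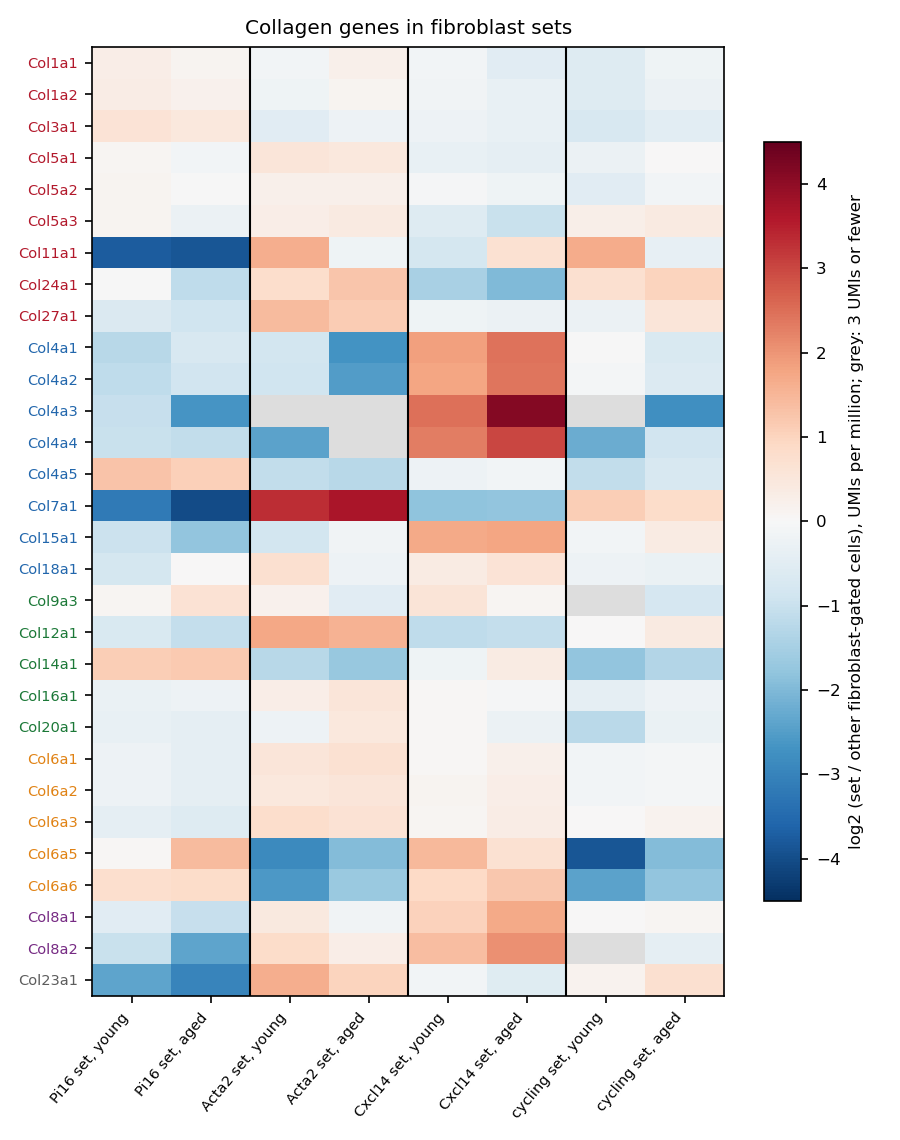
Log2 ratio of each collagen's level in a fibroblast set to its level in the other fibroblast-gated cells of the same library, for 30 collagens (rows) and the Acta2, Cxcl14, Pi16 and cycling sets of the young and aged library (columns); grey marks 3 UMIs or fewer. Col7a1 (10.0-fold and 12.8-fold) and Col12a1 stand out in the Acta2 set, and Col4a1 to Col4a4 in the Cxcl14 set, in both libraries.

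Of the 14 young cells of the Coch set, the levels were 264 CPM for Col11a1, 336 for Col18a1, 243 for Col23a1, 1574 for Col6a1 and 1448 for Col6a3. Col4a1 was at 606 and Col4a2 at 343 in these cells, against 604 and 351 in the young Cxcl14 set. Its single aged cell allowed no comparison of ages. The Col11a1 level came from 3 of the 14 cells, with 65 of its 127 UMIs in 1 cell.

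Differences between ages were also read within each set. In the Acta2 set, 3 of 29 collagens with at least 20 UMIs were at least 1.5-fold higher in the aged library and 8 were lower, against 10.3% and 10.2% of all genes. Col4a1 in the Acta2 set was at 117 and 32.9 CPM (0.28, 0.24 to 0.33), and Col4a2 had a ratio of 0.29. Col18a1 was at 89.6 and 29.8 (0.33, 0.28 to 0.39) and Col23a1 at 117 and 50.1 (0.43, 0.37 to 0.49). Col8a1 had a ratio of 0.579. Col15a1 went the other way, at 21.9 and 42.4 (1.93, 1.55 to 2.42).

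In the Cxcl14 set, 5 of 31 collagens were higher in the aged library and 5 were lower, against 10.1% and 9.54% of all genes. Col4a4 was at 21.9 and 54.4 CPM (2.48, 1.98 to 3.11), and Col4a3 had a ratio of 2.68. Col14a1 was at 813 and 1331 (1.64, 1.57 to 1.70). Col1a1 was at 17926 and 11828 (0.66, 0.65 to 0.67), which was the lowest Col1a1 ratio among the 4 sets. The Col3a1 to Col1a1 ratio in this set was 1.06 in the young and 1.43 in the aged library.

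In the Pi16 set, 4 of 34 collagens were higher in the aged library and 8 were lower, against 12.0% and 7.58% of all genes. Col24a1 was at 57.7 and 32.8 CPM (0.57, 0.53 to 0.61). The Col4a4 and Col4a3 pair parted here, with Col4a4 at 4.01 and 6.18 (1.54, 1.26 to 1.90) and Col4a3 at 1.34 and 0.695 (0.52, 0.32 to 0.84). Col7a1 had a ratio of 0.38 and Col23a1 of 0.43. In the cycling set, 8 of 27 were higher and 5 lower, against 10.5% and 8.55% of all genes. Col27a1 there was at 43.9 and 78.8 (1.79, 1.53 to 2.10) and Col14a1 at 284 and 448 (1.58, 1.48 to 1.68). Cells in no set had 7 of 33 higher and 3 lower, against 11.6% and 9.17% of all genes. Col23a1 ratios were below 1 in each of the 4 sets, while Col24a1 was at 1.13 in the Acta2 set and 1.0 in the cycling set.

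Across fibroblast-gated cells, each thinned to 10000 UMIs (1484 young and 1372 aged cells, with 85 and 81 shallower cells left out), chains of collagens I, IV and VI varied together. Pearson's r of Col1a1 with Col1a2 was 0.94 in the young and 0.90 in the aged library, and of Col4a1 with Col4a2 it was 0.74 and 0.76. Col1a1 with Col3a1 had 0.84 in both libraries. Col6a1 with Col6a2 had 0.68 and 0.64, Col6a1 with Col6a3 0.58 and 0.54, and Col6a2 with Col6a3 0.60 and 0.58. Among collagen V chains, Col5a1 with Col5a2 had 0.54 in both libraries. Col5a1 with Col5a3 had 0.42 and 0.49, and Col5a2 with Col5a3 had 0.36 and 0.44. Col5a1 with Col1a1 had 0.64 in both libraries. Mean UMIs per thinned cell differed, at 197 and 164 for Col1a1 and 7.66 and 9.71 for Col5a3. Their part in r was not tested. Cells high in collagen I tended to be low in collagen IV, with r of -0.22 and -0.41 for Col1a1 with Col4a1. Col12a1 with Col14a1 had r of 0.00 in the young and -0.30 in the aged library. All cells of a library share its preparation, and the counts of a cell sum to a fixed total, so these values are descriptions.

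Endothelial-gated cells devoted 6795 CPM to collagen (young) and 6910 (aged), an aged-to-young ratio of 1.02 (0.996 to 1.04). Basement membrane collagens were 81.9% and 95.6% of these UMIs. Col4a1 was at 2980 and 3435 (1.15) and Col4a2 at 1532 and 1743 (1.14). Col4a1 was detected in 55 of 64 young and 48 of 48 aged endothelial-gated cells thinned to 2000 UMIs, against 25.4% and 22.7% of fibroblast-gated cells and 0 of 302 young T/NK-gated cells, which by a limit of 3 counts allows up to 0.993% of cells with a UMI at that depth and sets no limit on cells expressing the gene. Without thinning the shares were 92.6% and 100% of endothelial-gated, 69.0% and 64.8% of fibroblast-gated and 0.980% of young T/NK-gated cells.

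Both endostatin-family collagens were more abundant here than in fibroblast-gated cells. Col15a1 was at 498 and 607 CPM (1.22), and Col18a1 was at 553 and 817 (1.48, 1.38 to 1.58). Col18a1 was thus lower in aged fibroblast-gated cells and higher in aged endothelial-gated cells, a contrast that could not be tested. Col13a1, a transmembrane collagen, was at 69.8 and 41.0 (0.587), and 134 of its 201 young UMIs were in 1 cell. Those 201 UMIs were the larger portion of the 245 Col13a1 UMIs in the young library.

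Among 18 collagens with at least 20 UMIs in endothelial-gated cells, 1 was higher in the aged library (5.56%, against 14.0% of all genes) and 11 were lower (61.1%, against 11.0% of all genes). The higher one was Col8a1, at 16.0 and 50.1 CPM (3.14, 2.21 to 4.52), from 46 UMIs in 10 young cells and 115 in 16 aged cells. The lower ones were fibrillar, FACIT and beaded filament chains and Col13a1. Col1a1 was at 206 and 37.5 (0.182), Col3a1 at 271 and 53.2 (0.196), and Col6a1 at 64.3 and 5.23 (0.081). With cell types taken from an unsupervised clustering instead, the ratio was 0.607 for Col6a1 and 0.325 for Col3a1.

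The marker sums given here for other cell types were also lower in the aged library, by differing amounts. Their part in the result was not tested. The 6 pericyte markers summed to 589 CPM in young and 44.0 in aged endothelial-gated cells. All 6 were detected in each library, with Rgs5 alone at 459 and 35.3. Fibroblast markers summed to 346 and 288, with 6 and 5 of 6 detected. Most of that sum was Fstl1, at 231 and 278. Dcn was at 85.8 and 5.23, Dpt at 11.5 and 1.31, Twist1 at 10.8 and 2.18, and Lum at 6.25 and 0. Pdgfra had 2 UMIs in each library. The 6 neutrophil markers summed to 440 and 19.6, with all 6 detected in each library, and the 8 macrophage/monocyte markers to 246 and 183. When cells with any pericyte marker UMI were left out, 46 of 68 young and 41 of 49 aged cells remained. A deeper cell is more likely to hold such a UMI, so this filter also selects on depth. The part of depth in the values below was not tested. Of 10 collagens then measured, 3 were higher in the aged library (13.6% of all genes were) and 1 was lower (11.3% of all genes). The higher ones were Col5a2, Col8a1 and Col18a1, and the lower one was Col13a1. Col1a1 was then at 30.7 and 29.6 and Col3a1 at 52.1 and 47.4, so neither was 1.5-fold apart. Col5a2, which had been at 88.2 and 59.3 over all endothelial-gated cells, was at 15 and 58.0, from 21 and 104 UMIs. Over all endothelial-gated cells the Col5a2 ratio was 0.672. It was 0.336 without the 10 highest cells and 1.01 as a mean of per-cell levels. Col8a1 was at 10.7 and 44.6, Col13a1 at 132 and 44.6, Col18a1 at 548 and 877, and Col4a1 at 2462 and 3279.

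**Figure D5:**
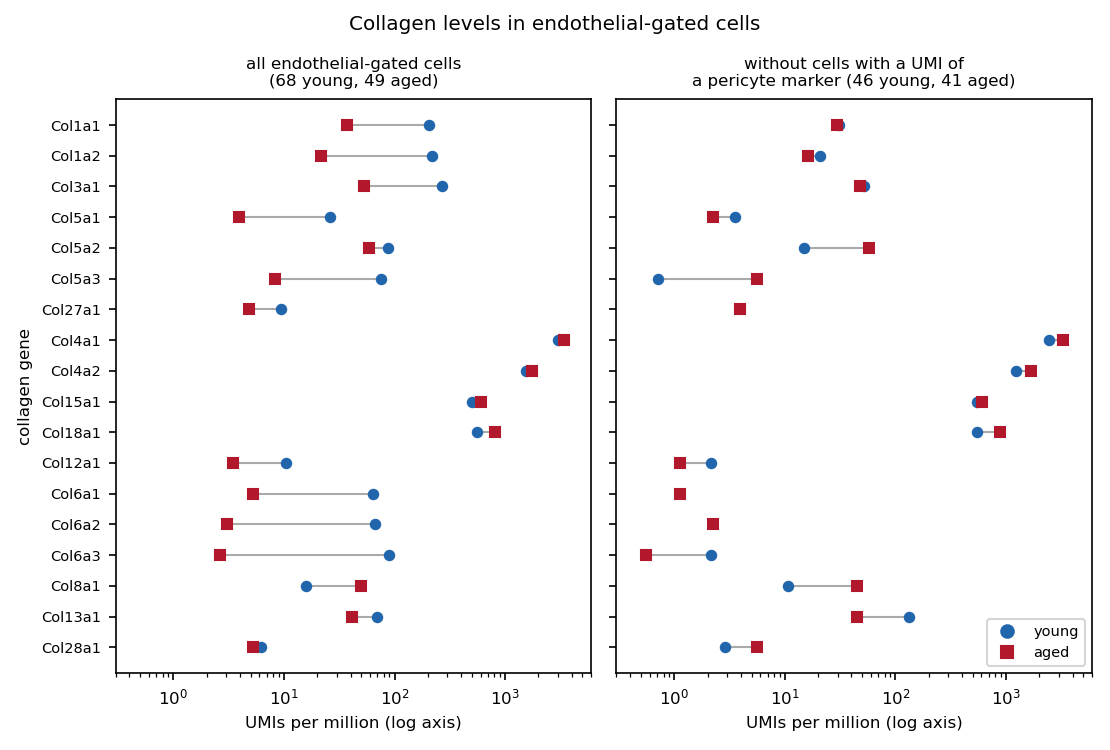
Levels of collagen genes (CPM, log axis) in endothelial-gated cells of the young and aged library, with all cells and without cells that have a pericyte marker UMI; circles are young, squares aged, and a line joins the pair where both are above 0. Young Col1a1 goes from 206 to 30.7 and Col3a1 from 271 to 52.1 when those cells are left out, while Col8a1 stays lower in the young library.

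Pericyte-gated cells, which wrap small vessels, mixed basement membrane and fibrillar collagens. Basement membrane collagens were 42.4% and 24.9% of their collagen UMIs, fibrillar collagens 39.6% and 61.7% and beaded filament collagens 15.1% and 9.74%. Col4a1 was at 3700 and 2404 CPM and Col6a3 at 935 and 730. The aged group held 8 cells, and 1 of them supplied 900 of its 1512 Col1a1 UMIs, so no ratio is given. Endothelial markers summed to 568 and 939 CPM in these cells and the 8 macrophage/monocyte markers to 12.0 and 894, with 5 and 8 of them detected, and their part in these levels was not tested. In an unsupervised clustering no cluster could be named pericyte from these markers.

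Collagen IV chains came in unequal amounts. The Col4a1 to Col4a2 UMI ratio was 1.67 and 1.92 in fibroblast-gated, 1.95 and 1.97 in endothelial-gated and 2.08 and 2.51 in pericyte-gated cells. Neutrophil-gated cells differed, with 22 Col4a1 against 111 Col4a2 UMIs in the young library (0.198, 0.119 to 0.315) and 3 against 56 in the aged library (0.054, 0.011 to 0.165). The counting intervals of the neutrophil ratios did not overlap those of the fibroblast-gated cells. Col4a2 in neutrophil-gated cells was at 9.82 and 11.5 CPM, against 121 and 103 in fibroblast-gated cells.

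Immune cells had collagen transcripts at low levels, and the part of free RNA in these levels was not tested. Col3a1 was found in 21.2% and 19.3% of neutrophil-gated cells thinned to 2000 UMIs, 16.3% and 13.8% of macrophage/monocyte-gated cells and 10.9% and 16.1% of T/NK-gated cells, against 99.3% and 99.5% of fibroblast-gated cells. Without thinning the shares were 52.4% and 37.6%, 70.9% and 60%, 43.5% and 50%, and 99.6% and 99.9%, at median depths of 5673 and 4364, 16329 and 12921, 7395 and 7735, and 42089 and 49977 UMIs. Thinning left out 90 and 78, 22 and 49, 4 and 1, and 34 and 27 shallower cells of these types. In macrophage/monocyte-gated cells, collagens took 479 young and 194 aged CPM (0.405, 0.388 to 0.424). A single young cell held 1218 of the 1741 Col1a1, 769 of the 1239 Col1a2 and 1003 of the 1934 Col3a1 UMIs. Without the 10 highest cells the ratio was 0.904. Of 22 collagens, 2 were higher in the aged library (9.09%, against 16.7% of all genes) and 8 were lower (36.4%, against 6.72%). Without the 1 highest cell these counts were 3 and 2 of 21.

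The higher genes were Col19a1, with 12 and 24 UMIs, and Col23a1, with 8 young and 57 aged UMIs (5.50, 2.61 to 13.4) from 7 and 17 cells. In T/NK-gated cells 0 of 3 collagens were higher in the aged library (25.2% of all genes were) and 1 was lower (20.4% of all genes), namely Col1a2. In neutrophil-gated cells 3 of 18 collagens were higher in the aged library (16.7%, against 19.8% of all genes) and 4 lower (22.2%, against 14.7%). Col1a1 was at 77.5 and 57.5 CPM there and Col3a1 at 115 and 98.2. TMM scaling shifted the log2 ratios of all genes by -0.19 in both immune cell types.

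A few collagens of low overall abundance belonged to rare cells. Col17a1, the hemidesmosome collagen of basal keratinocytes, had 60 of its 80 young UMIs in 8 keratinocyte-gated cells (540 CPM). Col19a1 had 53 of 74 young and 6 of 47 aged UMIs in the 7 skeletal-muscle-gated cells of each library. Col23a1 was at 394 CPM in the 17 young lymphatic endothelial-gated cells and was found in 16 of them. Col4a1 was at 1002 and Col4a2 at 415 in the 25 young adipocyte-gated cells. The aged library had 1 keratinocyte-gated, 3 lymphatic and 1 adipocyte-gated cells, so ages were not compared there.

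Genes that make and handle collagen were read from 2 lists in fibroblast-gated cells. Of 30 genes for chain modification, folding, secretion and cross-linking, 1 was at least 1.5-fold higher in the aged library and 0 were lower, against 11.7% and 8.16% of all genes. The median log2 ratio was 0.23, against 0.09 over all genes. Ratios were above 1 for 24 of the 30, but the share of all genes above 1 was not counted. These ratios are without TMM scaling, which shifted all fibroblast log2 ratios by -0.09. The higher one was Plod2, the lysyl hydroxylase of telopeptides, at 260 and 415 CPM (1.60). Of 11 receptor, uptake and degradation genes, 10 had at least 20 UMIs, of which 1 was higher and 2 were lower, against the same shares of all genes, with a median log2 ratio of 0.05. Itga2, a collagen receptor subunit, was at 67.3 and 102 (1.52). Ctsk, a protease that cleaves collagen, was at 820 and 416 (0.51), and Itga11, another collagen receptor subunit, was at 24.9 and 13.9 (0.56).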

How the data were processed

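The authors deposited raw UMI counts per gene and cell barcode, 1 matrix per library, made per the submitters' processing notes with Cell Ranger 9.0 and STAR on mm10; the matrix header names Cell Ranger 8.0.1. Cells with at least 500 UMIs, at least 200 genes and under 15% mitochondrial UMIs were kept. A cell's score for a type was the mean of its capped, scaled marker levels, and the top type was taken at a score of at least 0.2 and a margin of at least 0.1 over the next. Counts were summed per library and cell group and divided by the group's total UMIs. Exact Poisson, binomial and Clopper-Pearson 95% intervals were used, and a count of 0 was set to a floor of 3 for ratios. A collagen's ratio of a set to the other cells was instead left out at 3 UMIs or fewer. Scrublet marked 0.0644% and 0.0475% of cells as doublets, so its calls have not worked and doublets were kept. Its scores served only to rank cells for an alternative, and how well they rank doublets was not tested. Members, marker lists and gene lists were chosen with earlier results of these data known. Values are given for collagens with at least 100 UMIs in the cell type described, others by count, except where a smaller count is named after its value was seen; of the handling genes the 2 highest and 2 lowest ratios are named. Alternatives were TMM (edgeR 4.0.16), totals without collagen, per-cell means, leaving out the highest cells or doublet scores, 22 Leiden clusters (scanpy 1.11.5), a stricter gate of 0.25, other count limits and a fold of 2. Scripts were tested on simulated data.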

Additional observations from a re-analysis of the deposited data

Results flagged for a closer look

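Among collagens with at least 100 UMIs over both libraries in a cell group, 2 had an aged-to-young ratio past 1.5-fold in opposite directions in different cell types or fibroblast sets. At the lower limit of 20 UMIs, and with the cells in no set, Col4a3, Col5a1, Col5a3, Col6a5, Col15a1, Col23a1, Col27a1 and Col28a1 did so too. The difference between the groups was not tested, because each age has 1 library. Col11a1 was higher in the aged Cxcl14 set, with a ratio of 1.70 (1.17 to 2.48, from 52 young and 71 aged UMIs), and lower in all fibroblast-gated cells (0.657), the Acta2 set (0.219), the Pi16 set (0.603) and the cycling set (0.190). In the cells in no set Col11a1 was not past 1.5-fold either way. In the aged Cxcl14 set 64 of the 71 UMIs lay in 1 cell, and 64 of the 80 in the aged cycling set did so too. Col8a1 was higher in aged endothelial-gated cells, with a ratio of 3.14 (2.21 to 4.52), and lower in the aged Acta2 set, with a ratio of 0.579 (0.533 to 0.629).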

How the results depend on the processing

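No paired analysis was possible because each age has 1 library. Of the 33 fibroblast collagens compared under 8 alternatives, 6 passed 1.5-fold, 5 or 6 of them did so under each alternative, and 0 turned direction. The fibroblast collagen ratio was 0.850 with TMM scaling, 0.901 with totals without collagen, 0.911 with per-cell means and with clusters and 0.913 with the stricter gate. The macrophage/monocyte ratio, 0.405 as reported, was 0.355 with TMM scaling, 0.711 with per-cell means, 0.904 without the 10 highest cells, 0.916 without the top 4% of doublet scores, 0.659 with clusters and 0.933 with the stricter gate. The endothelial ratio was 0.954 with TMM scaling, 1.21 with per-cell means, 1.33 without the 10 highest cells, 0.960 without the top doublet scores, 0.922 with clusters, 1.10 with the stricter gate and 1.32 without cells with a pericyte marker UMI.

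Fibroblast counts of higher and lower collagens were 0 and 2 at a fold of 2 and 2 and 8 with clusters, and the lower count was 8 without the count limit and 3 with at least 100 UMIs. In macrophage/monocyte-gated cells the higher count was 1 with TMM scaling and at a fold of 2. There, 7 were higher and 13 lower without the count limit, 0 and 5 with at least 100 UMIs, and 2 lower with the stricter gate, without the top doublet scores or without the 1 highest cell. In endothelial-gated cells 6 were higher and 20 lower without the count limit, 2 higher with clusters or without the 1 highest cell, and 3 higher and 1 lower without pericyte marker cells. Without those cells Col5a3 had a ratio of 7.81 from 1 and 10 UMIs and Col6a2 of 1.04 against the floor. With per-cell means in the Cxcl14 set, Col11a1 had 0.931 and Col6a5 1.24.

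Between fibroblast sets, leaving out the 10 highest cells of a gene from the set alone, which lowers the set by construction, gave 3 higher in the Acta2 set, 5 higher and 8 lower in the Cxcl14 set, and 0 higher and 8 lower in the cycling set. A fold of 2 gave 5 lower in the Pi16 set and 0 higher and 3 lower in the cycling set. These set alternatives and those on pericyte marker cells and the 1 highest cell were chosen after seeing the data. No cause of these differences was tested.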
